A study of Homo sapiens with 6 samples.

Results

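The aldo-keto reductase (AKR) genes of luciferases-expressing HepG2 cells were examined after exposure to sedanolide. AKRs are soluble enzymes that use NADPH to reduce the carbonyl groups of aldehydes and ketones, from sugars and products of lipid peroxidation to retinaldehyde, prostaglandins, steroids and bile acid precursors. Liver cells hold many of them, and several human members are known targets of NRF2, the transcription factor that KEAP1 holds back and that binds the antioxidant response element (ARE). The 10 members AKR1A1, AKR1B1, AKR1B10, AKR1B15, AKR1C1, AKR1C2, AKR1C3, AKR1C4, AKR1D1 and AKR7A2 were taken by symbol. Of the 61541 Ensembl genes in the count table, 10 of 10 members were found. The second table, which holds log2(TPM + 1) for 11006 rows, listed 6 of the 10 members.

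HepG2 is a human hepatoblastoma cell line. The cells used here carry an ARE-driven SLR3 luciferase and a TK promoter-driven ELuc luciferase on a mouse artificial chromosome, in the treated and in the control cells alike, and it was not stated in the sources used here whether they were 1 clone. The 3 sedanolide libraries came from cells exposed for 24 h to sedanolide, a phthalide-like compound of celery oil, at 100 μM, and the 3 control libraries from cells labelled as control. Per the methods sedanolide was kept as a stock in dimethyl sulfoxide, and what the control cells received is not given in the sources used here. Nothing in the labels says whether the 3 libraries of a group came from separate experiments, so p-values measure the spread between these libraries. In bulk RNA, fewer cells that express a gene and less RNA per cell cannot be told apart.

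Expected counts per library, as assigned by RSEM, were 16420258 to 22940963 in control and 19027265 to 26714853 in sedanolide. Counts were scaled by TMM and are given as CPM, the count of a gene over the scaled library total times 1000000. The edgeR quasi-likelihood test was run over 14104 genes and reporters with Benjamini-Hochberg adjustment, and a gene was called at an adjusted p of 0.05 and a fold change of 1.5. The libraries stood apart in a way that crossed the treatment. Principal component 1 held 56.1% of the variance and put control 1, control 2 and sedanolide 3 on side A, and control 3, sedanolide 1 and sedanolide 2 on side B. The changes of the members tested are therefore also given within each side and from a fit that holds the side as a term. The sides come from the same expression values that this fit tests. Its SE and p-values can thus be too small and its intervals too narrow, and its calls are not independent support. Of 14 hepatocyte and hepatoblast markers, 14 were tested, and their summed level was 35915 to 55078 CPM (without TMM) in control and 26048 to 45068 in sedanolide. edgeR called 0 of them, with 4 at an unadjusted p under 0.05, as were 1681 of all 14104 features. DESeq2, limma-voom and the fit with the side as a term each called FGA lower. The markers CD3E, HBB, VWF, KDR and DCN were at 0 in all libraries. The summed blood and immune list was 827 to 1372 CPM (without TMM) in control and 476 to 779 in sedanolide, and most of it was LYZ. LYZ and the fibroblast marker PDGFRB were called lower by DESeq2 and by the fit with the side as a term, though not by edgeR without it or by limma-voom. Their part in the AKR results was not tested.

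The members lie in 5 places of GRCh38. AKR1A1 (chr1:45550543-45570049, plus strand) and AKR7A2 (chr1:19303965-19312144, minus strand) stand alone on chromosome 1. AKR1B1 (chr7:134442356-134459284, minus strand), AKR1B10 (ENSG00000198074, chr7:134527567-134541412, plus strand) and AKR1B15 (chr7:134549110-134579875, plus strand) are neighbours on chromosome 7. AKR1D1 (chr7:138002324-138118305, plus strand) is further along the same chromosome. AKR1C1 (ENSG00000187134, chr10:4963253-4983283, plus strand), AKR1C2 (ENSG00000151632, chr10:4987775-5018031, minus strand), AKR1C3 (chr10:5035354-5107686, plus strand) and AKR1C4 (chr10:5195462-5218949, plus strand) form the cluster on chromosome 10.

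Because reads of near-identical paralogs can be divided between them, the sequences come before the values. The coding sequences of AKR1C1 and AKR1C2 were identical at 953 of 972 bases (98.0%), and the last 189 bases did not differ at all. A 150-base read, the length that was sequenced, that falls inside this run fits both genes. The run is shown because it is the longest coding stretch that cannot tell them apart:
AKR1C1 and AKR1C2, coding bases 784 to 972: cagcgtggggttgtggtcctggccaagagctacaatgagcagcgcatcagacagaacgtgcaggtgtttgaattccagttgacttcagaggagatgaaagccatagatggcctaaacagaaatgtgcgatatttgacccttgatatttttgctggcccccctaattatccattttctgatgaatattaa

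The bases that do tell them apart are crowded near the start. Of the 19 differences, 11 fall in coding bases 13 to 162. These windows are shown with the differing bases in capitals:
AKR1C1, coding bases 13 to 162: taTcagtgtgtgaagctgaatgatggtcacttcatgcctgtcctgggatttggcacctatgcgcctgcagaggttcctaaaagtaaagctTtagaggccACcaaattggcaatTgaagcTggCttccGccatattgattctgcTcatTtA
AKR1C2, coding bases 13 to 162: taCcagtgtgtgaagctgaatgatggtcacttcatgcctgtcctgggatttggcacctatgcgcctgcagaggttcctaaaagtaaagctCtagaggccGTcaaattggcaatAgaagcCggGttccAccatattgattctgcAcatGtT

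Over the whole canonical transcripts, 506 of 6394 windows of 150 bases in AKR1C1 (7.91%) were found exactly in another AKR gene, which was AKR1C2. In AKR1C2, 528 of 3066 windows (17.2%) were found in AKR1C1 or AKR1C3, and in AKR1C3, 22 of 1037 (2.12%). The 7 remaining members shared 0 such windows. AKR1C1 was 91.5% identical to AKR1C3 and 88.5% to AKR1C4 in coding sequence. The counts showed this division. The expected counts of AKR1C1 and AKR1C2 were whole numbers in 0 of 6 libraries each, while their sum was whole in 6 of 6. The AKR1C1 and AKR1C2 values are thus estimates of how RSEM divided shared reads.

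AKR1B10 and AKR1B15 were 92.1% identical, with 75 differences spread so that the longest identical run was 116 bases, shorter than an untrimmed read. AKR1B10P1, a processed pseudogene of AKR1B10 (chr10:67750284-67751225, plus strand), was 95.2% identical, with 45 differences and a longest run of 112 bases. The middle one of the 150-base windows that align in these 3 genes without a gap is shown with the bases that differ from AKR1B10 in capitals. It holds 4 differences in AKR1B15 and 3 in AKR1B10P1:
AKR1B10, coding bases 426 to 575: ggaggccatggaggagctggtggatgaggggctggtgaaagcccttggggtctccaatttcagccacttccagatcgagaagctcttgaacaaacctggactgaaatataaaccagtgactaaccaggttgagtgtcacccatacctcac
AKR1B15, coding bases 510 to 659: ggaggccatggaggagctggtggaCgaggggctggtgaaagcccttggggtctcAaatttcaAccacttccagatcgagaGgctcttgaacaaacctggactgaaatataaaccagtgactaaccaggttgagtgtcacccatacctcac
AKR1B10P1, bases 425 to 574: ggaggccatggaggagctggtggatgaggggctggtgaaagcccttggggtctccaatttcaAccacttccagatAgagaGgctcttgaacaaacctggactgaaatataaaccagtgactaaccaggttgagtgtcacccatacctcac

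AKR1B10 and AKR1B15 counts were whole in 4 of 6 libraries each, and their sum in 6 of 6. The 6 members AKR1A1, AKR1B1, AKR1C3, AKR1C4, AKR1D1 and AKR7A2 were whole in 6 of 6. AKR1B1 was 76.8% identical to AKR1B10 with a longest shared run of 22 bases.

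**Figure D1:**
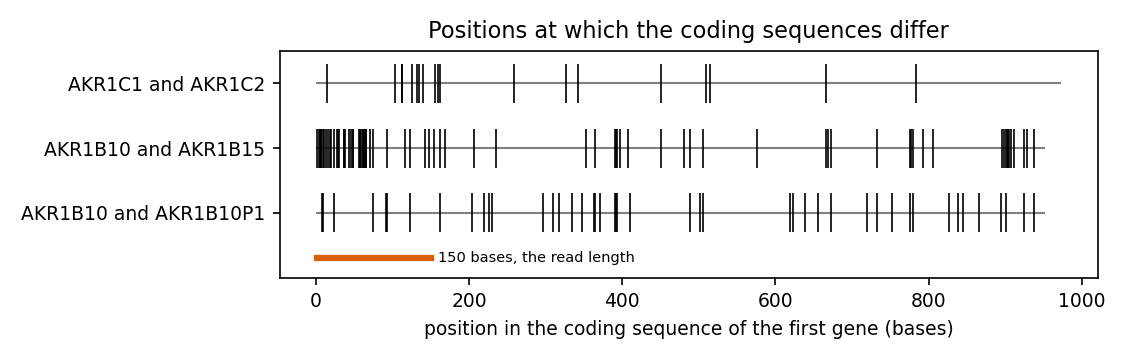
Positions along the coding sequence (x axis, bases) at which pairs of AKR genes differ, 1 vertical mark per difference, with the read length of 150 bases as a bar. AKR1C1 and AKR1C2 differ at 19 positions and leave a 189-base stretch unmarked at the end, whereas AKR1B10 differs from AKR1B15 at 75 and from the pseudogene AKR1B10P1 at 45.

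Among the 10 members, 8 had counts enough to be tested and 2 of these were called, both higher, AKR1B10 and AKR1C1. Over all genes and reporters tested, 0.362% were called higher and 0.674% in either direction. The groups did not overlap, with every sedanolide library above every control library, for 3 of the 8 (AKR1B10, AKR1C1 and AKR1C2), against 8.69% of all features tested. The log2 fold change was above 0 in 6 of the 8 members, with a median of 0.10 against 0.0057 over all features. The groups of the 5 remaining members tested overlapped.

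**Figure D2:**
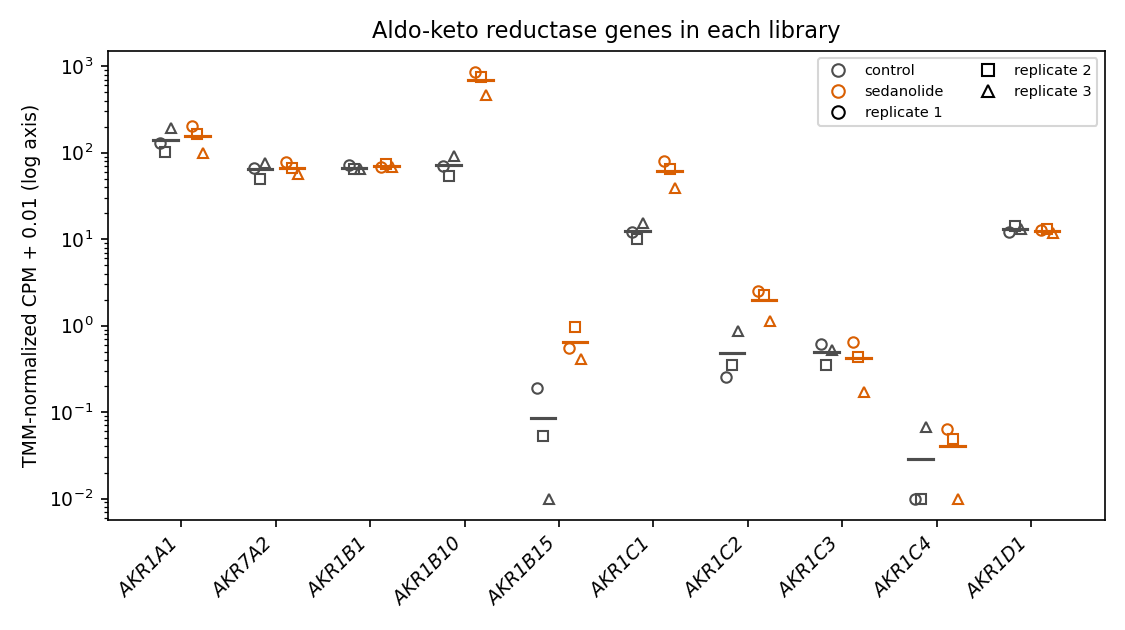
TMM-normalized CPM of the 10 AKR genes in each of 6 libraries, with 0.01 added so that 0 can be drawn (log axis). Symbols mark the replicate, and horizontal lines are group means. AKR1B10, AKR1C1 and AKR1C2 have every sedanolide library above every control library, as does the low AKR1B15.

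AKR1B10 reduces retinaldehyde and aliphatic and aromatic aldehydes, and is known for its high level in liver tumors. Controls 1 to 3 had 69.3, 53.2 and 92.8 CPM, and sedanolide 1 to 3 had 857, 752 and 461 CPM. The lowest sedanolide library, sedanolide 3, lay well above the highest control library, control 3. The log2 fold change was 3.27 (SE 0.307, 95% interval 2.54 to 3.99), a 9.61-fold increase (edgeR quasi-likelihood test, adjusted p = 0.0138). It ranked 1 by log2 fold change and 13 by p-value. Within sides A and B the log2 ratio was 2.91 and 3.12, and a fit with a term for the side gave 3.01 (SE 0.130, edgeR adjusted p = 2.76e-05), where 1.07% of features were called higher. The gene was not called without control 1 (edgeR adjusted p = 0.156), without control 2 (0.0820) or without sedanolide 2 (0.109), although the log2 fold change stayed between 3.08 and 3.50.

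AKR1B15 encodes a close relative of AKR1B10 that is placed in mitochondria and acts on ketosteroids and other ketones. It had 3, 1 and 0 expected counts in controls 1 to 3 against 10, 25.0 and 10.0 in sedanolide 1 to 3. The groups did not overlap, but the control values lie at or under the 3 counts that an observed 0 allows in a library. AKR1B15 did not pass the filter on low counts and was not tested. With all genes of at least 1 count kept, its edgeR adjusted p was 0.0957. AKR1B10 took 99.7 to 100% of the counts of the pair in control and 99.9% in each sedanolide library (exact permutation test, two-sided, p = 0.9, n = 3). The sum of both genes had a log2 fold change of 3.26 (SE 0.306, 95% interval 2.54 to 3.99, edgeR adjusted p = 0.0137). It was 2.91 within side A, 3.12 within side B and 3.01 with the side as a term. As AKR1B10 held nearly all counts of the pair, the sum had to come out close to AKR1B10 alone. Whether reads of AKR1B15 were assigned to AKR1B10 was not tested.

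The pseudogene AKR1B10P1 was the only 1 of 16 annotated AKR pseudogenes with a mean of at least 1 count per library, and 13 of them were at 0 in all libraries. It had 7, 3 and 6 counts in controls 1 to 3 against 19, 58 and 36 in sedanolide 1 to 3. The groups did not overlap. The log2 fold change was 2.45 (SE 0.492), which did not pass the test (edgeR adjusted p = 0.108) but did under DESeq2 (adjusted p = 0.00400) and with the side as a term (0.0301). Within sides A and B the log2 ratio was 2.37 and 2.27. Its counts were 0.239 to 0.612% of those of AKR1B10 in control and 0.119 to 0.310% in sedanolide (exact permutation test, two-sided, p = 0.4, n = 3). Whether these counts are transcripts of the pseudogene or misassigned reads of AKR1B10 was not tested.

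AKR1B1 is aldose reductase, which turns glucose into sorbitol in the polyol pathway. Its level was 72.5, 64.0 and 65.5 CPM in controls 1 to 3, and 68.4, 74.3 and 68.9 CPM in sedanolide 1 to 3. The groups overlapped, and the log2 fold change was 0.07 (SE 0.110, 95% interval -0.19 to 0.33, edgeR adjusted p = 0.838). This interval excludes a 1.5-fold change in either direction. The log2 ratio was 0.01 within side A and 0.12 within side B, and the fit with the side as a term gave 0.07. AKR1B1 and AKR1B10 are neighbours on chromosome 7 and had similar CPM in control cells. The ratio of AKR1B10 to AKR1B1 counts was 0.832 to 1.42 in control and 6.69 to 12.5 in sedanolide.

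AKR1C1 inactivates progesterone as a hydroxysteroid dehydrogenase and also reduces aldehydes formed in lipid peroxidation. Its level was 12.1, 9.91 and 15.4 CPM in controls 1 to 3, and 79.6, 64.0 and 39.3 CPM in sedanolide 1 to 3. Every sedanolide library was above every control library, and sedanolide 3 was again the lowest of its group. The log2 fold change was 2.29 (SE 0.292, 95% interval 1.61 to 2.98), a 4.90-fold increase (edgeR adjusted p = 0.0280). It ranked 12 by log2 fold change. Within sides A and B the log2 ratio was 1.84 and 2.22, and a fit with a term for the side gave 2.03 (SE 0.144, edgeR adjusted p = 0.000147). When libraries were left out in turn, the log2 fold change stayed between 2.05 and 2.53, but the gene was called in 1 of 6 cases, without sedanolide 3. In the other 5 cases, without control 1, 2 or 3 or sedanolide 1 or 2, the edgeR adjusted p was 0.0580 to 0.207.

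AKR1C2 reduces dihydrotestosterone and binds bile acids. It had 3.60, 8.15 and 14.8 expected counts in controls 1 to 3 against 46.5, 58.0 and 28.4 in sedanolide 1 to 3. In CPM this was 0.242, 0.339 and 0.848 against 2.53, 2.24 and 1.11. The groups did not overlap, and the log2 fold change was 2.03 (SE 0.516, 95% interval 0.82 to 3.25), but edgeR did not call it (adjusted p = 0.186, unadjusted p = 0.00545). DESeq2 called it (adjusted p = 0.0205), where 0.922% of features were called higher, and so did the fit with the side as a term (1.65, edgeR adjusted p = 0.0160). The log2 ratio was 1.93 within side A and 1.49 within side B. The share of AKR1C1 in the counts of AKR1C1 and AKR1C2 was 98.2, 96.6 and 94.8% in controls and 97.0, 96.6 and 97.2% in sedanolide (exact permutation test, two-sided, p = 0.8, n = 3). AKR1C2 took the small rest in every library, and how far its counts hold reads of AKR1C1 was not tested.

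AKR1C3 is a hydroxysteroid dehydrogenase that makes testosterone and reduces prostaglandins. It had 10, 8 and 9 counts in controls 1 to 3 against 12, 11 and 4 in sedanolide 1 to 3. The groups overlapped, and the log2 fold change was -0.26 with an interval of -1.50 to 0.99 (edgeR adjusted p = 0.878), too wide to show or exclude a 1.5-fold change. The log2 ratio was -1.57 within side A, which rests on the 4 counts of sedanolide 3, and 0.07 within side B, and the fit with the side as a term gave -0.56 (SE 0.489). AKR1C4, a hydroxysteroid dehydrogenase of the liver that acts in bile acid synthesis, had 0, 0 and 1 count in controls and 1, 1 and 0 in sedanolide, so any difference was not detectable at this depth.

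As 1 feature, AKR1C1 to AKR1C4 had 12.9, 10.6 and 16.8 CPM in controls 1 to 3, and 82.8, 66.7 and 40.6 CPM in sedanolide 1 to 3. This sum does not depend on how reads were divided within the cluster. The log2 fold change was 2.24 (SE 0.297, 95% interval 1.54 to 2.94, edgeR adjusted p = 0.0300), with 1.79 within side A, 2.16 within side B and 1.97 in the fit with the side as a term. It was called in 1 of 6 fits with a library left out, with values of 2.00 to 2.48.

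AKR1A1 is the general aldehyde reductase, which also acts on glucuronate on the way to gulonate. Its level was 128.7, 101 and 192 CPM in controls 1 to 3, and 202, 163 and 99.4 CPM in sedanolide 1 to 3. The groups overlapped fully, and the level followed the sides instead, with the libraries of side A at 99.4 to 128.7 CPM and those of side B at 163 to 202 CPM. The log2 fold change was 0.14 (95% interval -0.61 to 0.89, edgeR adjusted p = 0.893) and turned to -0.14 with the side as a term, where the interval narrowed to -0.43 to 0.15. Its log2 ratio was -0.21 within side A and -0.08 within side B. AKR7A2, which reduces aflatoxin dialdehyde and succinic semialdehyde, had 66.3, 50.1 and 76.4 CPM in controls and 77.3, 66 and 56.7 CPM in sedanolide. Its groups overlapped too, at a log2 fold change of 0.05 (95% interval -0.40 to 0.50, edgeR adjusted p = 0.930), which was -0.06 with the side as a term, -0.04 within side A and -0.09 within side B. AKR1D1, the steroid reductase that makes the bent ring junction of bile acids, had 12.0, 14.2 and 13.2 CPM in controls and 12.8, 13 and 11.9 CPM in sedanolide. Its log2 fold change was -0.07 (95% interval -0.36 to 0.23, edgeR adjusted p = 0.863), which was -0.09 with the side as a term, -0.14 within side A and -0.04 within side B. For AKR7A2 and AKR1D1 the intervals exclude a 1.5-fold change. For AKR1A1 the fit without the side does not exclude it. Its interval with the side as a term can be too narrow to decide, as the sides come from the same values.

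**Figure D3:**
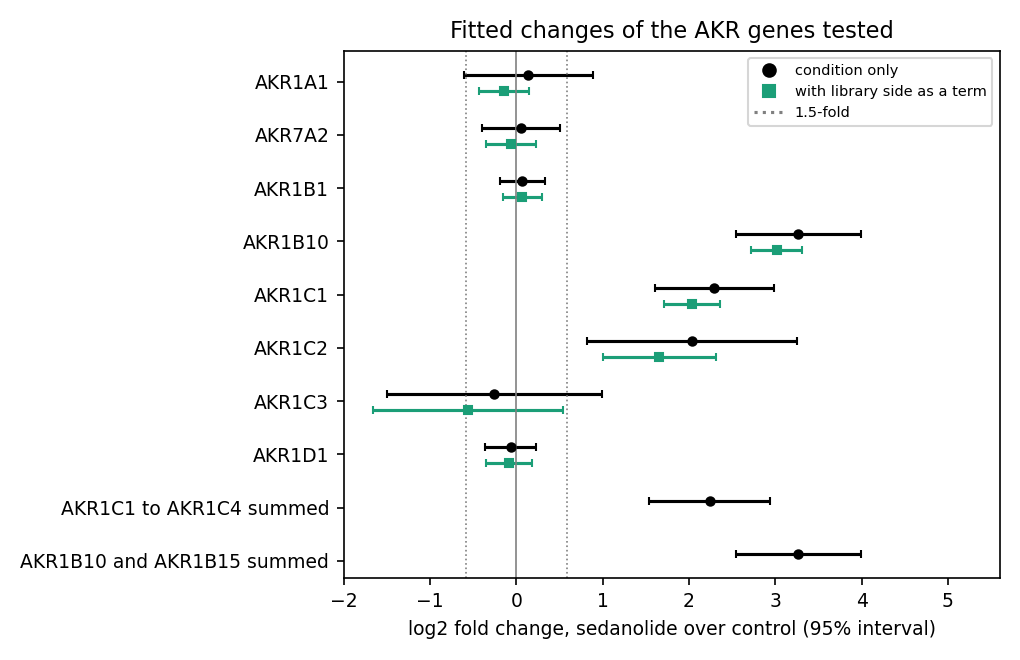
Log2 fold change of sedanolide over control (x axis) with its 95% interval for the 8 AKR genes tested and for 2 sums, fitted with the condition only (black circles) or with the library side as a term (green squares, single genes only). AKR1B10, AKR1C1 and AKR1C2 lie to the right of the 1.5-fold line in both fits, and the intervals of the low AKR1C3 are the widest in either fit.

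The ratio of 2 genes in the same library does not depend on depth or scaling, and ratios to AKR1A1 and AKR1C1 were examined, chosen after the values were seen. The ratio of AKR1B10 to AKR1A1 counts was 0.538, 0.527 and 0.482 in controls 1 to 3 against 4.25, 4.61 and 4.64 in sedanolide 1 to 3. Its coefficient of variation was 5.76% in control and 4.83% in sedanolide, against 27.7 and 29.8% for the CPM of AKR1B10. The ratio of AKR1B10 to AKR1B1, by contrast, varied as much as the level, by 28.9% in control and 29.99% in sedanolide. Sedanolide 3, which had the lowest AKR1B10 level of its group, had the highest ratio to AKR1A1 but the lowest ratio to AKR1B1 (6.69). The ratio of AKR1C1 to AKR1A1 was 0.0938, 0.0980 and 0.0799 in controls, and 0.394, 0.393 and 0.395 in sedanolide. The ratio of AKR1B10 to AKR1C1 was 5.74, 5.38 and 6.03 in controls, and 10.8, 11.7 and 11.7 in sedanolide, a mean 2.00 times higher. In each of these ratios every sedanolide library was above every control library (exact permutation test, two-sided, p = 0.1 each, the smallest that 3 against 3 allows).

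**Figure D4:**
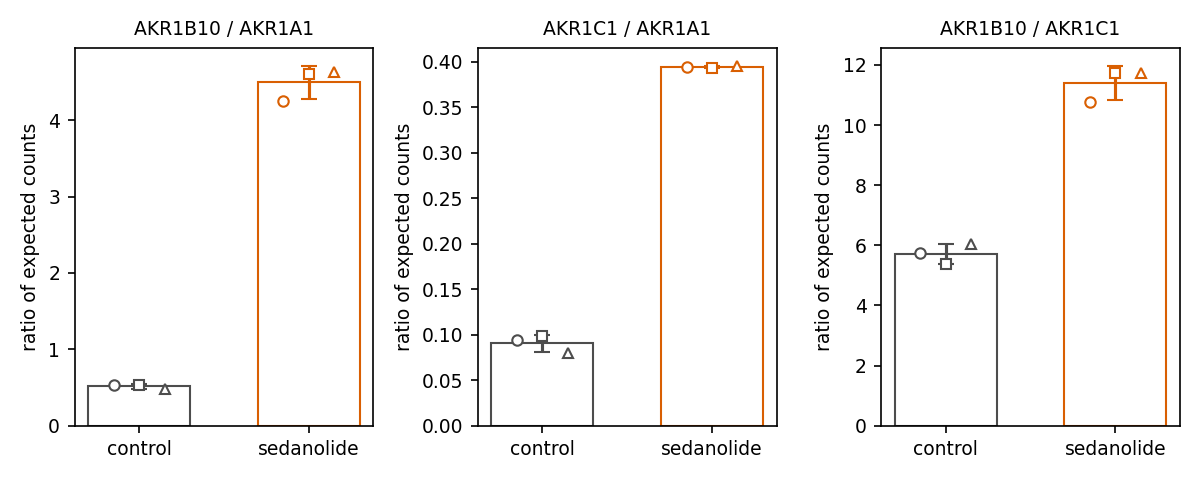
Ratios of expected counts of 2 AKR genes within each library (y axes, starting at 0). Bars are means, error bars the SD of 3 libraries, and symbols the libraries, with circles, squares and triangles for replicates 1, 2 and 3. The 3 ratios do not overlap between groups, and AKR1C1 / AKR1A1 lies between 0.393 and 0.395 in sedanolide.

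The makeup of the family differed between the groups. The 10 members together took 364, 302 and 461 CPM (without TMM) in controls 1 to 3 against 1271, 1101 and 743 in sedanolide 1 to 3, a mean of 375 ± 80.1 against 1039 ± 270 (SD, n = 3, exact permutation test, two-sided, p = 0.1, the smallest possible). AKR1B10 held 19.1, 18.2 and 20.3% of these counts in controls and 65.9, 66.2 and 62.4% in sedanolide. AKR1A1 held 35.6, 34.5 and 42.1% in controls and 15.5, 14.4 and 13.5% in sedanolide. AKR1C1 held 3.34, 3.38 and 3.37% in controls and 6.12, 5.64 and 5.32% in sedanolide. These are shares of counts, not per length. As parts of a common total, they fall for other members when AKR1B10 rises, and the CPM of AKR1A1 overlapped between the groups. In control cells the general aldehyde reductase was the most counted member, and in sedanolide-treated cells the retinaldehyde reductase AKR1B10 was.

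**Figure D5:**
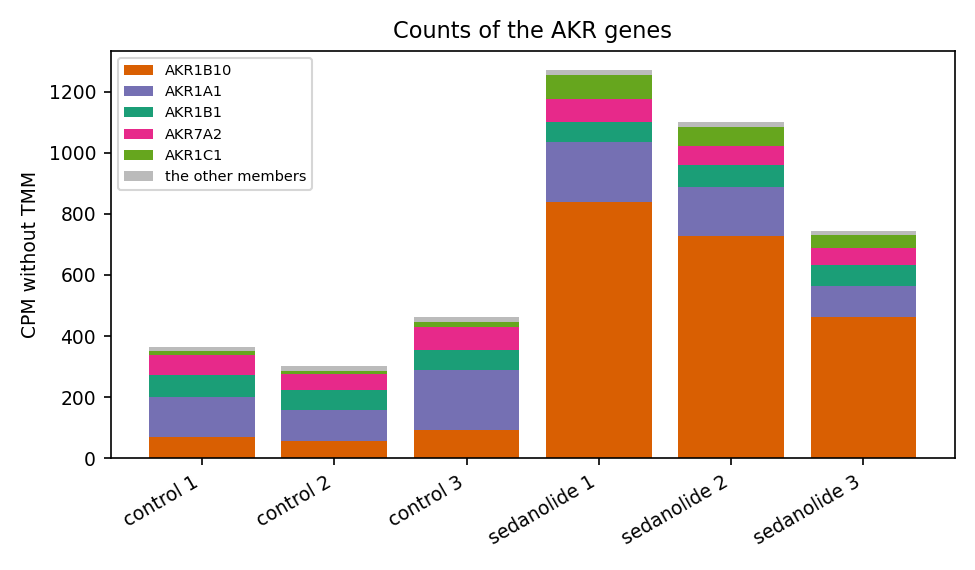
AKR genes in CPM without TMM (y axis, from 0), stacked by gene for each of 6 libraries. The stacks reach 302 to 461 in control and 743 to 1271 in sedanolide, and the AKR1B10 segment makes most of the difference.

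Per length, the order of the 6 members in the TPM table put AKR1B10 first after treatment. TPM are given here as mean ± SD of 3 libraries, recovered from the deposited log2(TPM + 1). In control cells the order was AKR1A1 (202 ± 61.7 TPM), AKR1B1 (98.6 ± 7.97), AKR7A2 (79.0 ± 10.2), AKR1B10 (74.2 ± 15), AKR1C1 (14.7 ± 1.68) and AKR1D1 (9.65 ± 1.46). AKR1B10 overlapped with both AKR1B1 and AKR7A2, while each control library of AKR1B1 (89.6 to 105 TPM) was above each of AKR7A2 (68.1 to 88.4 TPM). In sedanolide-treated cells the order was AKR1B10 (659 ± 155 TPM), AKR1A1 (201 ± 55.7), AKR1B1 (98.3 ± 10.8), AKR7A2 (75.9 ± 6.20), AKR1C1 (65.2 ± 16.9) and AKR1D1 (7.35 ± 0.356). AKR7A2 and AKR1C1 overlapped there. AKR1B10 moved from rank 1987 to rank 206 of 11006 by mean TPM, and AKR1C1 from rank 6711 to rank 2209. AKR1D1 did not overlap between groups on this scale (9.25, 11.3 and 8.43 TPM in controls, 6.94, 7.58 and 7.53 in sedanolide), unlike its CPM, at a difference of -0.34 in log2(TPM + 1) that did not pass the test (limma, adjusted p = 0.402). The share of all rows without overlap in this direction was not computed.

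Of the members, 8 had a promoter in the RefSeq table (GRCh38.p14), which gives 250 bases before to 50 after a start. AKR1B10 and AKR1B15 were not among them. The 250 bases before the starts of AKR1C1 and AKR1C2 shared an identical run of 245 bases. The parts that lie outside any annotated exon are shown because the groups of both genes did not overlap, and the AKR1C2 stretch is contained in that of AKR1C1:
AKR1C1, chr10:4963165-4963252, plus strand: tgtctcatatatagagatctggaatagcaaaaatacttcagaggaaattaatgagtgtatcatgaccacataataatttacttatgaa
AKR1C2, chr10:5004024-5004107, minus strand: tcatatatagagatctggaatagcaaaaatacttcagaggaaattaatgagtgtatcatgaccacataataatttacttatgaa

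The letters of the ARE core, TGACNNNGC on either strand, were found in 13.3% of 35116 RefSeq promoters of 300 bases. Of the 8 members with a promoter, AKR7A2 held them, 3 times in the same window. The stretch between its start and the neighbouring gene is shown, with the 3 matches in capitals, because AKR7A2 did not change beyond the spread of the libraries. The matches do not overlap, and the first lies on the opposite strand:
AKR7A2, chr1:19312147-19312325, minus strand: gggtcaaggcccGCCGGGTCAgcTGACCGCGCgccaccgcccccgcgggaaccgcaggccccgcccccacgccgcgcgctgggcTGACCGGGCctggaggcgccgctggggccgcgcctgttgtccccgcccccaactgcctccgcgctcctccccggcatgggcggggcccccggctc

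The AP-1 letters TGANTCA, found in 7.71% of promoters, were in none of the members' windows. The TATA letters TATAAA, found in 11.5%, were in a window of AKR1C3 and in that of AKR1C4. A match is a description of letters, and a missing match says nothing about sites elsewhere.

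Of the genes that share substrates or products with the AKRs, 6 lists were examined with 51 genes tested. edgeR called 0 of them, with 11 at an unadjusted p under 0.05, as were 1681 of all 14104 features. limma-voom called 0 as well, and DESeq2 called 4 of these 51, named here after their values were seen: SLC2A2, HSD11B2 and SULT2A1 lower, and CYP39A1 higher. DESeq2 called 2.31% of all features in either direction. The fit with the side as a term called 5 of the 51 and 2.7% of all features. The 5 were BAAT, HSD11B2, HSD17B2, SLC2A2 and SULT2A1, all lower. In that fit 17 of the 51 were at an unadjusted p under 0.05, as were 2750 of all 14104 features. Among the other members of the superfamily, 2 of 7 were tested and both were below 0, KCNAB2, a potassium channel subunit, at a log2 fold change of -0.16 (edgeR adjusted p = 0.719). Among carbonyl reductases of other families, 5 of 9 tested genes were above 0, and DCXR, which reduces L-xylulose, was at 0.06 (0.907). Polyol and fructose genes had 3 of 7 above 0, with the glucose transporter SLC2A1 at 0.01 (0.969). Retinoid genes had 5 of 9 above 0. Their most counted member was ALDH1A1, which oxidizes retinaldehyde, at 488, 519 and 572 CPM in controls and 697, 721 and 671 CPM in sedanolide. The groups of ALDH1A1 did not overlap, with sedanolide higher, as in 8.69% of all features tested. Its log2 fold change of 0.40 (SE 0.113) did not pass the test (edgeR adjusted p = 0.224). Steroid hormone genes had 5 of 13 above 0 with a median of -0.23, and HSD17B11 was at 0.15 (0.796). Bile acid synthesis genes had 3 of 11 above 0, and CYP27A1, which hydroxylates sterol side chains, was at 0.31 (0.50).

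Known NRF2 targets outside the family were listed as well. Of 27 tested, 12 were called higher and 0 lower, where 0.362% of all features were called higher. Of the 27, 26 were above 0, with a median log2 fold change of 1.08. Several of these genes are ones that the study named on these libraries, so the list is not independent evidence. The 12 were NQO1, GCLC, GCLM, TXNRD1, SRXN1, FTL, FTH1, OSGIN1, ABCC3, GPX2, PTGR1 and EPHX1. The most counted was FTL, the ferritin light chain, at 0.96 (edgeR adjusted p = 0.0280). In the fit that held the side, 22 of the 27 were called, all higher, where 1.07% of all features were called higher.

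Over the 6 libraries, the genes outside the family whose log2 CPM followed AKR1B10 most closely were PTGR1 (Pearson r = 0.999), GSTA2 (0.998), SRXN1 (0.997), GPX2 (0.997) and NQO1 (0.996). PTGR1 reduces enones, GSTA2 conjugates glutathione, SRXN1 repairs peroxiredoxins, GPX2 reduces peroxides and NQO1 reduces quinones. Within the family AKR1C1 came closest (0.995), followed by AKR1C2 (0.933), AKR1B1 (0.48), AKR1A1 (0.36), AKR7A2 (0.34), AKR1C3 (-0.11) and AKR1D1 (-0.33). These 6 points share the libraries, their sides and the difference between the groups, so the values are a description. PTGR1 was at 151, 136 and 88.8 CPM in sedanolide 1 to 3 against 18.4, 14.7 and 26.2 CPM in controls 1 to 3. It was picked by this correlation, so its order of libraries adds nothing to that of AKR1B10. In AKR1B10, AKR1C1 and PTGR1 alike, control 3 was the highest control and sedanolide 3 the lowest of the treated libraries, which are the libraries that component 1 put on the side opposite to the rest of their group.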

How the data were processed

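RNA-seq was analysed in 6 libraries, 3 control and 3 sedanolide. Per the methods, paired-end reads of 150 bp came from directional libraries of captured mRNA. They were checked with FastQC, trimmed with Trimmomatic, aligned to GRCh38 with STAR and quantified with RSEM. Tool versions and the annotation release were not given in the sources used here. The authors deposited expected counts, not normalized, for 61541 genes and 2 reporters, of which 7.90 to 8.59% of values per library were not whole. The authors also deposited log2(TPM + 1) for 11006 rows. The added 1 follows from the values, which give TPM sums of 988500 to 994764 per library.

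Samples were grouped by their treatment labels. Expected counts were rounded, filtered with filterByExpr, scaled by TMM and fitted with edgeR 4.0.16 (robust quasi-likelihood, condition as the only term) in R 4.3.3. The study tested with DESeq2 at the same thresholds through a web application. It reported fewer genes in either direction than DESeq2 called here, and the cause of this difference was not tested. The interval of a change was taken from the t distribution with the degrees of freedom of the fit. Positions, transcripts and identities came from GENCODE 44, where 61369 genes matched by ID. Coding sequences were aligned globally. The procedure was tested on simulated data.

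The text names the 10 members, genes of 7 pathway lists that were called or had most counts in their list, AKR pseudogenes with a mean of at least 1 count, and the 5 genes with the highest correlation with AKR1B10. The members, the lists and the split by side were chosen with earlier results of these data known. Alternatives were DESeq2 1.42.0, limma-voom (limma 3.58.1), other size factors, library size only, other filters, unrounded counts, a replicate block, the side as a term or within sides, each library left out, and the TPM table with a pseudocount of 1 or 0.1. The glmTreat test and a sum that includes AKR1B10P1 were chosen after seeing the data. Counts within a group differed by more than sampling noise, so no library was a duplicate. The main results use all 6 libraries. The floor taken for a count of 0 was 3 counts per library, for counting error only. Other assays of the study were not analysed here.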

Additional observations from a re-analysis of the deposited data

How the results depend on the processing

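The direction of AKR1B10 and AKR1C1 was the same in every alternative run, and so was that of AKR1C2 in those on counts, as it was not in the TPM table used. Each alternative below changed a count or a call, and the cause was not tested. DESeq2 called 326 genes and reporters (130 of them higher) in place of 95, the fit with the side as a term called 381 (151 of them higher), and the fit to all genes with at least 1 count called 158. Of the listed pathway genes, 12 in the main fit, DESeq2 called 22 and the fit with the side as a term 27. The labels do not say whether the replicate numbers pair the libraries. Same-numbered libraries had correlations of -0.13, -0.30 and -0.73 of their deviations from the group means. These deviations hold the split along component 1, which crosses the replicate numbers, so the correlations cannot tell whether libraries were paired. With the replicate block, edgeR called 0 genes (772 at an unadjusted p under 0.05), 0 AKR genes and 0 listed genes, with the AKR1C sum at 2.21 (adjusted p = 0.452) and the sum of AKR1B10 and AKR1B15 at 3.26 (0.367). Testing against the 1.5-fold change itself (glmTreat) called 1 AKR gene, AKR1B10. The AKR1C sum was 1.79 within side A.

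With each library left out in turn, the number of genes called ranged from 0 to 136, of AKR genes from 0 to 2 and of listed genes from 0 to 16. It was 0 genes in edgeR without control 1 (1067 at an unadjusted p under 0.05) and without sedanolide 2 (889). The sum of AKR1B10 and AKR1B15 ranged from 3.08 to 3.49, the AKR1C sum from 2.00 to 2.48, the difference in the AKR1C1 share from -0.50 to 1.19 percentage points and that in the AKR1B10 share from -0.053 to 0.078.

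Members near 0 changed sign. AKR1A1 was at -0.05 without control 2, -0.10 without sedanolide 1, -0.14 with the side as a term, and -0.0080, -0.0081 and -0.0080 in the TPM table with a pseudocount of 1, of 0.1 and with a filter. AKR1B1 was at -0.0083, -0.0084 and -0.0083 in the TPM table. AKR7A2 was at -0.10 without control 2, -0.07 without sedanolide 1, -0.064 with the side as a term, and -0.051, -0.052 and -0.051 in the TPM table. The median over all rows of the TPM table was itself below 0, at -0.074 with a pseudocount of 1 and -0.079 with 0.1. In the main fit the median was 0.0057. AKR1C3 was at 0.15 without sedanolide 3. With each library left out, the highest value was 0.43 for AKR1A1 (without control 3) and 0.20 for AKR7A2 (without control 3), and the lowest for AKR1C3 was -0.70 (without sedanolide 1). AKR1C3 had few counts, and its 4 to 12 counts per library limit what can be seen. The filter of a mean of 1 TPM removed no gene.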
